A study of Sus scrofa with 48 samples.

Results

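Circular RNAs (circRNAs) of the cilium and centrosome genes CSPP1, NEK1 and ULK4 were examined in extracellular vesicles of boar seminal plasma. They comprise 4 circRNAs named by their coordinates, 1 of CSPP1, 1 of NEK1 and 2 of ULK4, and 8 more on the same chromosomes that share a start or an end with a named one. These 12 of 17379 circRNAs were picked by measured values, the junction reads over all 24 long RNA libraries, so that their high abundance is a description and not a result. That choice did not use the difference between H and L. Long RNA was sequenced from vesicles of 12 male Yorkshire boars with high sperm motility (H) and 12 male Yorkshire boars with low sperm motility (L), aged 14 to 36 months; Yorkshire is the breed of the sample labels, and the paper calls the boars large white. Mean total sperm motility was 0.94 in H and 0.40 in L, and each boar gave 1 library from an RNA input of 250 pg to 10 ng. The comparison of H with L asks which vesicle RNAs differ with motility.

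The centrosome holds a pair of centrioles, and a centriole that docks at the cell surface becomes the basal body from which a cilium or a sperm flagellum grows. CSPP1 binds microtubules at centrosomes, spindle poles and the ciliary axoneme, NEK1 is a kinase of centrosome and basal body, and ULK4 is a kinase-like protein needed for motile cilia. A circRNA forms when a splice donor is joined to an acceptor upstream of it, and a read across that back-splice junction tells the circle from the linear transcript.

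The deposited table gives the number of back-splice junction reads of each circRNA in each library. The H libraries held 149468 to 610615 junction reads (median 280608) and the L libraries 128644 to 593023 (median 297976). Levels are given as RPM, the junction reads of a circRNA per 1000000 circRNA junction reads of its library, a measure that does not grow with the length of the circle. At these depths 3 reads correspond to 4.91 to 20.1 RPM in H and 5.06 to 23.3 RPM in L, for counting error only, since amplified reads are not independent molecules. The smallest value above 0 in the table was 2 reads, so a 0 sets no upper limit here. Of the 96 values of the 4 named circRNAs, 86 were above 0, and the lowest of these was 15 reads. Over the whole table only 1.76% of the values above 0 lay under 10 reads, and their median was 80 reads. A named circRNA was thus either listed at 0 or counted with 15 reads or more.

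Both ends of all 12 circRNAs lay on annotated exon edges of the host gene, with AG before the start and GT after the end of the circle. Between 3 and 8 of the 12 were detected in an H library (median 5) and between 4 and 9 in an L library (median 6). H2 and H12 had the fewest, and L8 had the most. Over the whole table the median number of circRNAs detected per library was 1908.5 in H and 2359 in L, and L8 had 4255. The 3 host genes gave 59 circRNAs in all, 14 from CSPP1, 24 from NEK1 and 21 from ULK4.

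**Figure D1:**
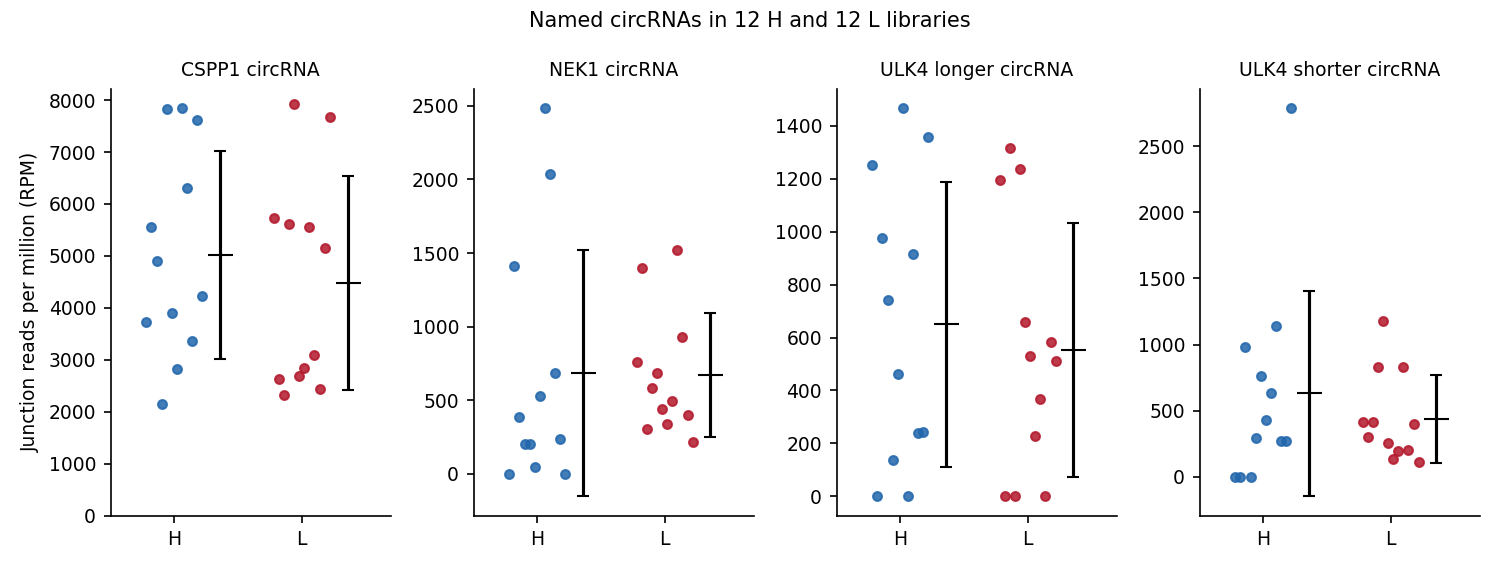
Level of the 4 named circRNAs in RPM (y axis, linear, a scale of its own in each panel) in 12 H and 12 L libraries, with 1 point per boar and the mean and SD beside the points. The groups overlap in each panel, and only the CSPP1 circRNA is above 0 in all 24 libraries.

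The CSPP1 circRNA spans 4:67679793-67689219 on Sscrofa11.1, minus strand, and ranked 6 of 17379 by mean RPM. It was read in 24 of 24 libraries, from 481 to 4548 reads. In H its level ran from 2144 RPM through a median of 4563 to 7850 RPM, and in L from 2323 RPM through a median of 4129 to 7925 RPM. The lowest libraries were H4 and L3, the highest were H8 and L5, and the ranges of the groups overlapped almost entirely. The means were 5020 ± 2001 RPM (SD, n = 12) in H and 4475 ± 2056 RPM (SD, n = 12) in L. The fitted log2 fold change of L over H was −0.09 (SE 0.30, P = 0.777, adjusted P = 1.00 over 956 circRNAs). The means thus lay closer together than 1 SD within either group. Its 95% interval covers folds from 0.627 to 1.42, and its sign turned when the fit used no filter. In vesicles of seminal plasma, fewer cells of a type and less RNA per cell cannot be told apart as the origin of such a level.

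Among the 40 circRNAs with reads in every library, the coefficient of variation (SD over mean) of CSPP1 was 42.2%, the 11th lowest. The median of the 40 was 52.1% and their range 22.7% to 88.2%. The standard error of CSPP1 in the fit was smaller than that of 99.5% of the circRNAs kept, whose median was 1.35. CSPP1 is therefore the member whose group difference was measured most precisely.

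The named junction took up most of the CSPP1 signal. It carried 40151 of the 48531 junction reads of the gene (82.7%). Its share of the gene's RPM was 84.3 ± 9.93% (SD, n = 12) in H, from 66.7% to 100%, and 76.0 ± 10.7% (SD, n = 12) in L, from 58.5% to 93.7%. The difference in this share was not tested. The next CSPP1 junction, 4:67698424-67706849, had a mean of 345 RPM and was read in 13 libraries. The only other CSPP1 circRNA that shares an end with the named one, 4:67669926-67689219, was read in L8 alone, with 34 reads. Summed over its 14 circRNAs, CSPP1 ranked 10 of 5182 host genes, with 2144 to 9365 RPM in H (median 5930) and 3512 to 8457 RPM in L (median 5435). The lowest sum of either group belonged to H4, where the named junction was the only CSPP1 circRNA read. The log2 fold change of the sum was −0.07 (SE 0.24, P = 0.783, adjusted P = 0.999 over 1107 host genes).

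By the NCBI annotation of Sscrofa11.1 the CSPP1 circle joins the end of exon 14 to the start of exon 10 of a transcript with 32 exons. With every exon in between it would measure 531 bases, or 528 bases by the other annotated chain of exons. It lies within coding sequence, codons 316 to 493 of 1220, and at 531 bases the host's reading frame runs on across the junction and meets 0 stop codons. The junction reads do not show which inner exons a circle holds, and no translation was measured. The 20 bases on each side of the junction are shown because they identify the circle, with the bases after the acceptor, the start of the circle, in capitals.
CSPP1 exons 14 to 10: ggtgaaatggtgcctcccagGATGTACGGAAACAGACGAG

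**Figure D2:**
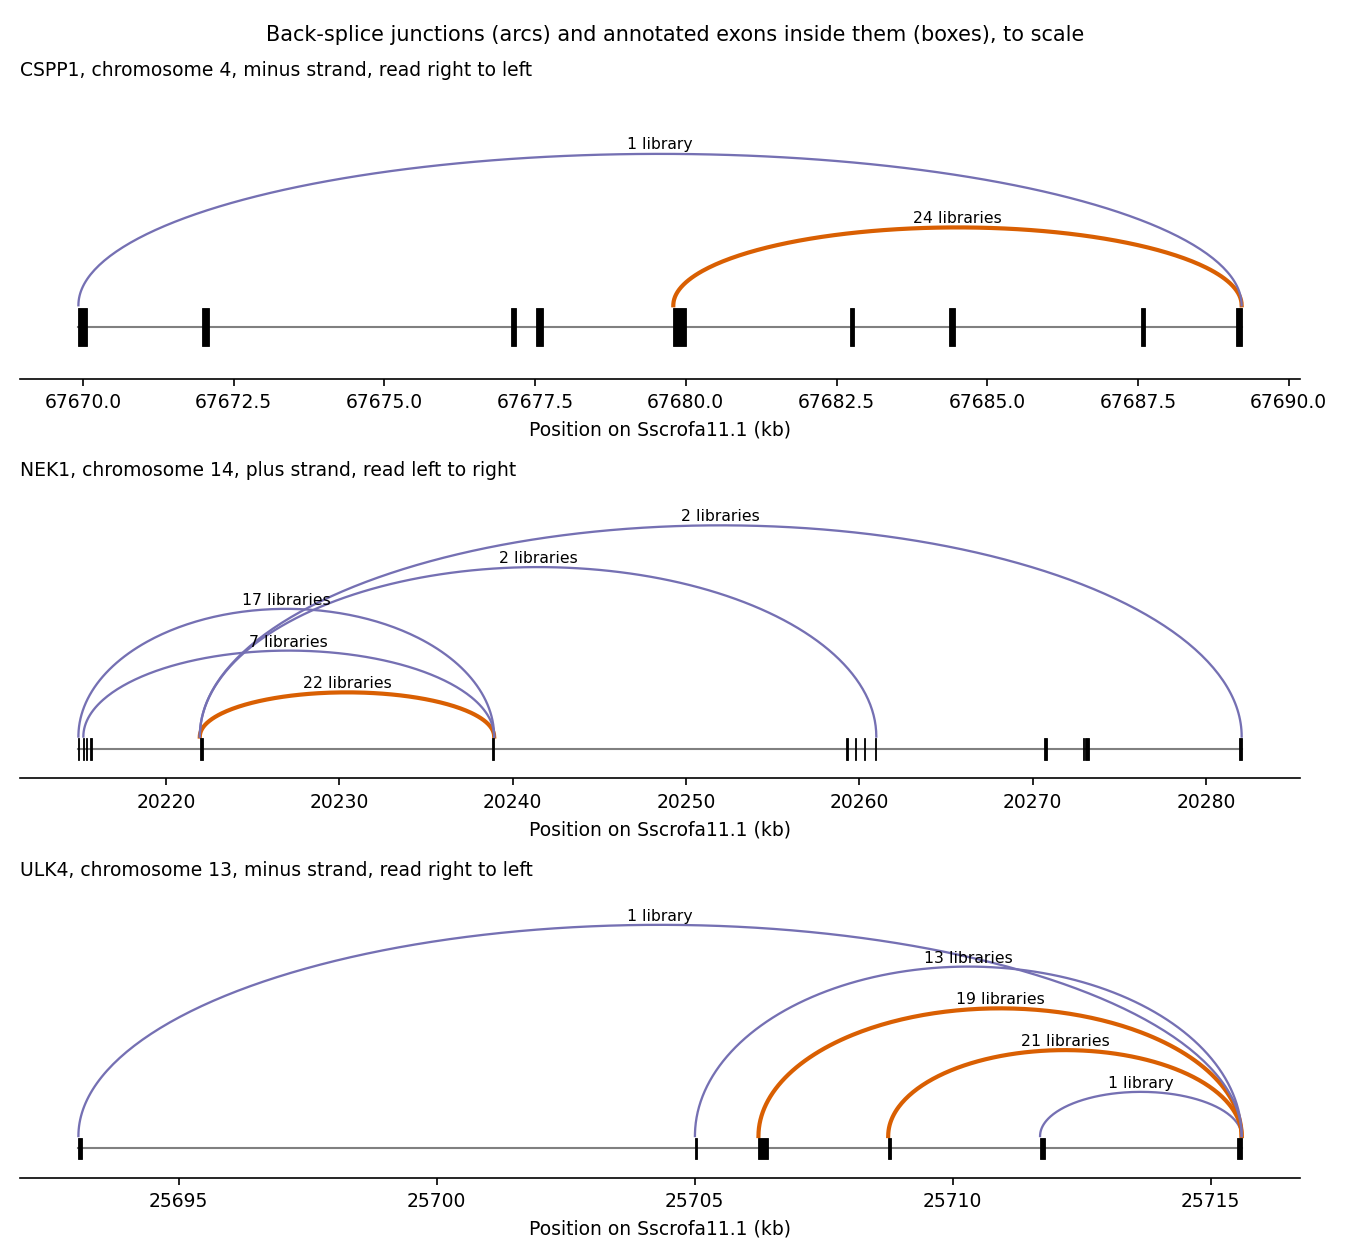
Positions in kilobases on Sscrofa11.1 (x axis, to scale) of the 12 back-splice junctions as arcs over the annotated exons inside them as boxes, with orange arcs for the 4 named circRNAs, purple arcs for the 8 that share a start or end with them, and the number of libraries with reads above each arc; arc height has no unit. The 5 ULK4 arcs meet at the start of exon 12.

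NEK1 is the protein kinase among the hosts. Its named circRNA spans 14:20221955-20238937, plus strand, and ranked 197 of 17379 with 5472 reads in 22 libraries. In H its level ran from 0 RPM through a median of 312 to 2483 RPM, and in L from 219 RPM through a median of 542 to 1518 RPM. It was listed at 0 in H1 and H12, was highest in H8 and H9, and the L libraries, lowest in L12 and highest in L9, all lay inside the H range. H8 and H9 together held 27.8% of its summed RPM. The means were 685 ± 838 RPM (SD, n = 12) in H and 673 ± 419 RPM (SD, n = 12) in L. The fitted log2 fold change was 0.01 (SE 0.92, P = 0.989, adjusted P = 1.00), with a 95% interval of folds from 0.290 to 3.51. Its sign turned with library totals, with DESeq2 and with the ratio of mean RPM. The coefficient of variation was 95.4%, against a median of 73.0% for circRNAs read in about as many libraries (1 more or 1 less).

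A second NEK1 junction, 14:20214951-20238937, ends at the same donor but begins at exon 13 instead of exon 17. It was read in 17 libraries, 9 H and 8 L. Its level ran from 0 RPM through a median of 160 to 1072 RPM in H and from 0 RPM through a median of 353 to 1147 RPM in L. H1, with 0 reads of the named NEK1 circRNA, had the highest level of this junction in H, and L6 had the highest in L. The log2 fold change was 0.74 (SE 1.36, P = 0.589, adjusted P = 1.00), with a 95% interval of folds from 0.262 to 10.6, and the groups overlapped. The 2 junctions were read together in 16 libraries, the named one alone in 6, the longer one alone in 1 and neither in 1. The named junction was the higher one in 10 of the 16 libraries with both. In H12 none of the 5 NEK1 members had reads, although H12 had 489875 junction reads in all.

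A further junction, 14:20215236-20238937, begins at exon 14 and was read in 2 H and 5 L libraries, with means of 17.0 RPM in H and 123 RPM in L. The filter on low counts did not keep it, so it has no fitted fold change. The other NEK1 members share the start at exon 17 and reach further downstream. Of these, 14:20221955-20260985 was read in H5 (29 reads) and L8 (54 reads), and 14:20221955-20282065 in L9 (174 reads) and L12 (30 reads). Over its 24 circRNAs NEK1 ranked 67 of 5182 host genes. The NEK1 sum ran from 116 to 3716 RPM in H (median 1257) and from 726 to 3496 RPM in L (median 2168), with H12 lowest and H8 highest. The log2 fold change of the NEK1 sum was 0.28 (SE 0.43, P = 0.518, adjusted P = 0.999). The named junction carried 38.8% of the NEK1 reads, less than its counterpart in CSPP1.

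The named NEK1 circle joins exon 18 back to exon 17 of a transcript with 36 exons, measures 267 bases and has 1 annotated chain of exons. It covers codons 423 to 511 of 1243, and the reading frame runs on across the junction with 0 stop codons. The circles from exon 13 (513 bases) and exon 14 (453 bases) also keep the frame with 0 stop codons when all annotated exons are included. The junctions of the 3 circles that share the donor of exon 18 differ only after the acceptor, so the capitals mark what distinguishes them.
NEK1 exons 18 to 17 (named): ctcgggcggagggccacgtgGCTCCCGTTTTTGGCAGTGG
NEK1 exons 18 to 13: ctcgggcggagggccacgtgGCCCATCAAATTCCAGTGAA
NEK1 exons 18 to 14: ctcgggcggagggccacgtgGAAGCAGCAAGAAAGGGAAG

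The whole named NEK1 circle is short enough to print, from the start of exon 17 to the end of exon 18, with exon 18 in capitals. The last base is joined to the first.
NEK1 circle, 14:20221955-20238937, plus strand: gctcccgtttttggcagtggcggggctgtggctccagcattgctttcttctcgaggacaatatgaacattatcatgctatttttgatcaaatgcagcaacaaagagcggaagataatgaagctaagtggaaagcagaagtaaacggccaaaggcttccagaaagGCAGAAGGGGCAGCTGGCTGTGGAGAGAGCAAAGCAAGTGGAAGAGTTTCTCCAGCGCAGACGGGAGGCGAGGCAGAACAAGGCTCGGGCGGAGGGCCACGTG

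ULK4, the kinase-like host, gave a pair of named circRNAs that begin at the same acceptor of exon 12 and end at different donors. The longer one, 13:25706237-25715600, minus strand, ranked 235 of 17379 with 5038 reads, and the shorter one, 13:25708751-25715600, ranked 268 with 4978 reads. The longer ULK4 circRNA was read in 10 H and 9 L libraries, from 0 RPM through a median of 602 to 1466 RPM in H and from 0 RPM through a median of 522 to 1315 RPM in L. H7 and L3 were highest, while H2, H8, L2, L4 and L10 were listed at 0, so the groups overlapped at both ends. Its means were 649 ± 539 RPM (SD, n = 12) in H and 553 ± 480 RPM (SD, n = 12) in L. The log2 fold change was −0.10 (SE 1.04, P = 0.926, adjusted P = 1.00), with a 95% interval of folds from 0.229 to 3.82, and its sign too turned without the filter.

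The shorter ULK4 circRNA was read in 9 H and 12 L libraries, from 0 RPM through a median of 362 to 2784 RPM in H and from 111 RPM through a median of 349 to 1176 RPM in L. H1, H2 and H4 were listed at 0, H12 stood far above the others, and all L libraries lay inside the H range, with L12 lowest and L5 highest. Its means were 630 ± 777 RPM (SD, n = 12) in H and 438 ± 333 RPM (SD, n = 12) in L. The log2 fold change was −0.51 (SE 1.06, P = 0.633, adjusted P = 1.00), with a 95% interval of folds from 0.167 to 2.97, and without H12 it was −0.00. H12 and L5 together held 30.9% of the summed RPM of the shorter circRNA, and its coefficient of variation was 111%.

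A further ULK4 junction, 13:25705006-25715600, adds exon 16 and was read in 7 H and 6 L libraries. Its level ran from 0 RPM through a median of 134 to 725 RPM in H and from 0 RPM through a median of 165 to 582 RPM in L, with H6 and L11 highest. The log2 fold change was −0.49 (SE 1.49, P = 0.741, adjusted P = 1.00), with a 95% interval of folds from 0.0941 to 5.36, and the groups overlapped. The remaining ULK4 members were read in 1 library each, 13:25693059-25715600 in H3 (110 reads) and 13:25711694-25715600 in L4 (142 reads). Over its 21 circRNAs ULK4 ranked 77 of 5182 host genes, with sums of 508 to 4334 RPM in H (median 1814) and 730 to 2789 RPM in L (median 1453). H10 had the lowest ULK4 sum and H12 the highest. The log2 fold change of the ULK4 sum was −0.27 (SE 0.42, P = 0.521, adjusted P = 0.999).

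**Figure D3:**
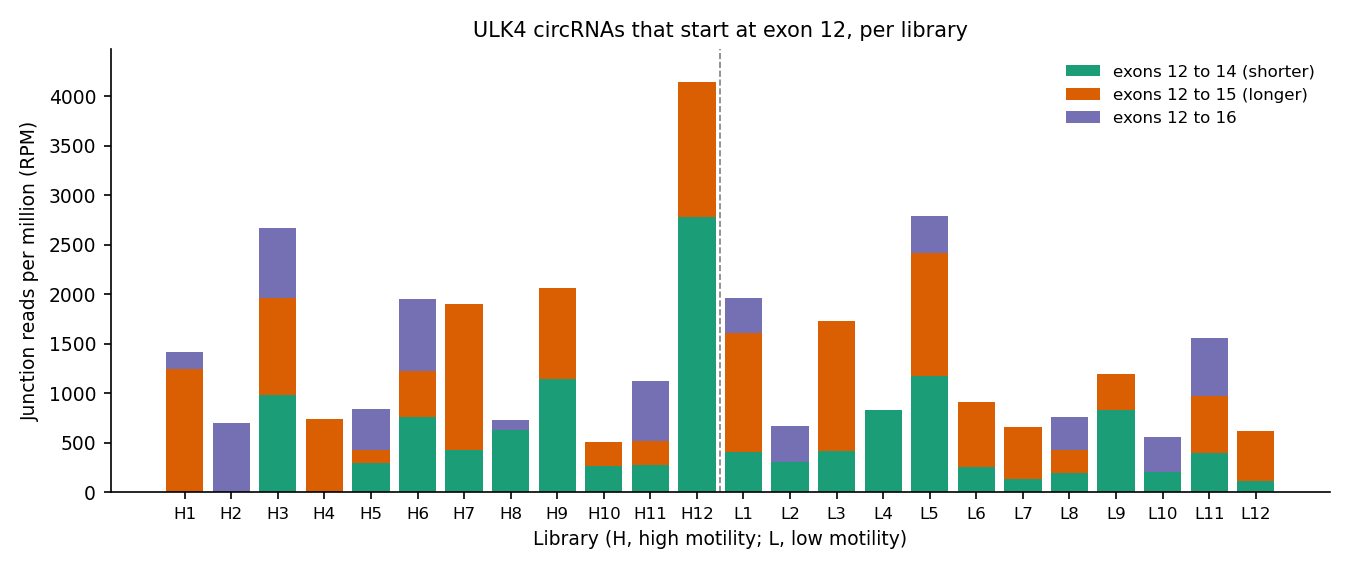
Level in RPM (y axis, stacked from 0) of the 3 ULK4 circRNAs that begin at exon 12 and were read in 6 or more libraries, in each of the 24 libraries (x axis), coloured by the exons between their ends. H2 had reads of the exon 12 to 16 junction only, and H12 had the tallest bar.

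Which ULK4 junctions were listed above 0 changed from library to library. Both named ULK4 circRNAs were read in 17 libraries, 8 H and 9 L. The longer one alone was read in H1 and H4, the shorter one alone in H8, L2, L4 and L10, and H2 had neither. Of the 3 ULK4 junctions that begin at exon 12 and were read in 6 or more libraries, 3 libraries had 1, 13 had 2 and 8 had all 3.

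The share of the longer circRNA among the reads of both named ULK4 junctions comes from the reads that chose both, but its difference between H and L was not used in the choice. It ran from 0% through a median of 47.0% to 100% in the 11 H libraries with either junction, and from 0% through a median of 56.7% to 82.2% in the 12 L libraries. H8, L2, L4 and L10 stood at 0%, and the only libraries at 100% were H1 and H4. The means were 51.7 ± 30.0% (SD, n = 11) in H and 48.3 ± 32.5% (SD, n = 12) in L. The difference of L minus H was −3.36 percentage points (two-sided permutation test, p = 0.798). The spread between boars was larger than this difference. Within the 17 libraries that had both ULK4 junctions, the longer one exceeded the shorter one in 1 of 8 H libraries and in 8 of 9 L libraries. The share there had a median of 45.8% in H, from 32.0% to 77.2%, and of 72.0% in L, from 30.8% to 82.2%. This contrast was noticed after the values were seen, in libraries picked by the same reads, and was not tested.

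By the annotation, the shorter ULK4 circle holds exons 12 to 14 (263 bases), the longer one exons 12 to 15 (445 bases) and the further one exons 12 to 16 (492 bases), of a transcript with 37 exons. The circles with 263 and 445 bases shift the reading frame at the junction. Read on from the host's frame, the first stop codon came after 98 codons in the shorter and after 155 codons in the longer circle. The circle with exon 16 keeps the frame, with 0 stop codons over codons 362 to 526 of 1275. The junction sequences show the shared acceptor of exon 12 in capitals after the 3 different donors in lower case.
ULK4 exons 14 to 12 (shorter): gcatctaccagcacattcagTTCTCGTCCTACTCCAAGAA
ULK4 exons 15 to 12 (longer): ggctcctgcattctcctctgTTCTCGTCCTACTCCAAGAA
ULK4 exons 16 to 12: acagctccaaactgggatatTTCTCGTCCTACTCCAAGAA

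The shorter ULK4 circle is printed whole, with its middle exon 13 in capitals, and is followed by exon 15, all in capitals, which is the sequence that only the longer of the named pair holds. Both are given in the direction of the transcript.
ULK4 shorter circle, 13:25708751-25715600, minus strand: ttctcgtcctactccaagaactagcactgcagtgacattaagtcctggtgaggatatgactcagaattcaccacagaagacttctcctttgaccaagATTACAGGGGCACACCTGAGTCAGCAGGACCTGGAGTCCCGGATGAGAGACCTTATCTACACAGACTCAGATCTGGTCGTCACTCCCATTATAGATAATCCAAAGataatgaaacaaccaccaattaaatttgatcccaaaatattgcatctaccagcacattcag
ULK4 exon 15, 13:25706237-25706418, minus strand: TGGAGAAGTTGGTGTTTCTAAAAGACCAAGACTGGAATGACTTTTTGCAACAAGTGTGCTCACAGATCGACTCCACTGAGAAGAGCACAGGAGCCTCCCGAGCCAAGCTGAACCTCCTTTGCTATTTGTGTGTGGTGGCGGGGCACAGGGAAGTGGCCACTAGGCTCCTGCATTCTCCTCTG

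Sequences beside the circles were compared with each other, since introns that can pair are a known feature of many circRNAs. In the 2000 bases on either side, 61.7% of the 14462 circRNAs on exon edges had a stretch matching the reverse complement of the other side. Of the 12 members 5 had one, 4 of ULK4 and 1 of NEK1. For the longer ULK4 circRNA the match measured 116 bases at 84.5% identity, and 42.9% of all circRNAs on exon edges had a match scoring as high or higher. For the shorter ULK4 circRNA it measured 106 bases at 78.3% identity. Neither the CSPP1 circRNA nor the named NEK1 circRNA had a match in this window.

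In the test of L against H across all circRNAs, the filter on low counts kept 6 of the 12 members, the 4 named ones, the NEK1 junction from exon 13 and the ULK4 junction that adds exon 16. A call needed an unadjusted P under 0.05 and a fold of 1.5 or more, or of 0.67 or less. By edgeR 0 of the 6 members were called and 0 had an unadjusted P under 0.05, and both counts were 0 by DESeq2 as well. Over all 956 circRNAs kept, edgeR called 3 (0.314%), all higher in L, and none of the 3 belongs to CSPP1, NEK1 or ULK4. DESeq2 called 11 of the 956 (1.15%), 5 higher and 6 lower in L. With other size factors (poscounts, chosen after seeing the data) DESeq2 called 8, of which 7 were higher and 1 lower in L. The median log2 fold change of the 6 members was −0.09, beside 0.14 over all 956 circRNAs. A P that misses the threshold does not show that the levels were alike, and the interval given with each of the 6 shows how wide the error of its fold was.

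The levels of the 4 named circRNAs did not follow each other closely over the 24 libraries, which share the depth of each library as a common divisor. Spearman's rho was 0.13 between CSPP1 and NEK1, −0.16 between CSPP1 and the longer ULK4 circRNA, and 0.27 between CSPP1 and the shorter one. NEK1 had −0.40 with the longer and 0.22 with the shorter ULK4 circRNA. The longer and shorter ULK4 circRNAs, from a single acceptor, had 0.28.

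The circRNAs of other host genes most alike each named one were sought among those with reads in at least 12 libraries, by Spearman's rho over the same 24 libraries. For CSPP1 they came from PHYHIPL (0.59), ZC3H14 (0.57) and KDM4C (0.56), where the median over 948 circRNAs was −0.00. A circRNA without an annotated host gene, read in 17 libraries, reached 0.74 with CSPP1. For NEK1 they came from XPO4 (0.67), NPEPPS (0.67) and KDM4C (0.66), with a median of 0.05 over 947. For the longer ULK4 circRNA they came from RAB6A (0.65), ST7L (0.62) and NDFIP2 (0.61), with a median of −0.02. For the shorter ULK4 circRNA they came from KDM4B (0.53), ASXL2 (0.52) and KDM1A (0.52), with a median of 0.02. KDM4C is the only host gene named for more than 1 of them. The lowest rho was −0.52 for CSPP1, −0.62 for NEK1, −0.85 for the longer and −0.65 for the shorter ULK4 circRNA. The values named are the highest of many, and none was tested.

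Other genes of cilium and centrosome were taken from a list of 213 genes, of which 135 had junction reads, on 569 circRNAs. They held 2.99% of all junction reads, and CSPP1, NEK1 and ULK4 together made up 32.1% of that share. By mean summed RPM the 3 genes ranked 1, 3 and 4 of the 135. Since the 3 were chosen by their junction reads, this share and these ranks are a description and not a result. The filter kept 33 of the listed genes in the test of host gene sums. By edgeR 0 of these 33 were called and 0 had an unadjusted P under 0.05, beside 3 of 1107 host genes (0.271%) over all, of which 2 (0.181%) were higher and 1 (0.0903%) lower in L. DESeq2 called 2 of the 33, AKAP9 and CEP350 (both lower in L, adjusted P = 0.999), beside 10 of the 1107 host genes (0.903%), 2 higher and 8 lower in L. With poscounts size factors DESeq2 called AKAP9 and CEP350 again, beside 8 of the 1107 host genes, 3 higher and 5 lower in L. The median log2 fold change of the 33 was −0.18, with 12 higher and 21 lower in L, beside 0.07 over all host genes, and it stayed below 0 with library totals, TMMwsp and DESeq2. The smallest P among them was that of the centrosomal scaffold AKAP9, with means of 258 RPM in H and 43.1 RPM in L (log2 fold change −2.40, SE 1.43, P = 0.0996).

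**Figure D4:**
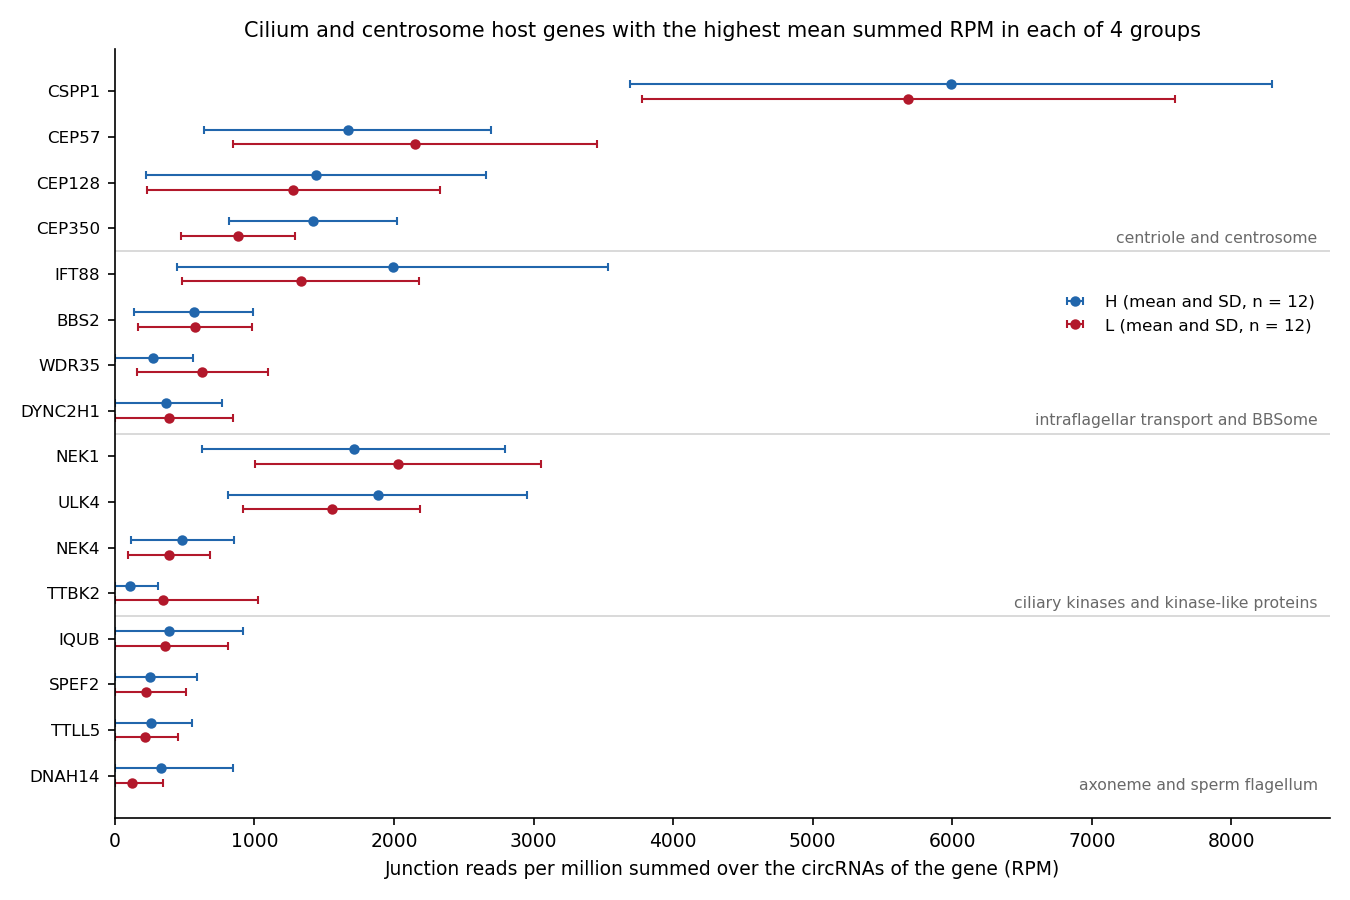
RPM summed over the circRNAs of a gene (x axis) for the 4 listed genes with the highest mean in each of 4 groups, as mean and SD over 12 H and 12 L libraries; SD bars are drawn from 0 where they would go below it. CSPP1, chosen by its junction reads, lies above all others, and the bars of H and L overlap for each of the genes drawn.

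Of 49 centriole and centrosome genes 41 had junction reads. After CSPP1 came the centrosomal proteins CEP57 with a mean of 1909 RPM from 1 circRNA, CEP128 with 1360 RPM from 16 and CEP350 with 1151 RPM from 17. CEP350 had 1419 ± 599 RPM (SD, n = 12) in H and 882 ± 411 RPM (SD, n = 12) in L, with overlapping ranges and a log2 fold change of −0.63 (SE 0.51, P = 0.222, adjusted P = 0.999). The 15 genes of this group that were kept had a median log2 fold change of −0.39. Over all 41 genes of this group with reads, the summed level lay between 8992 and 23420 RPM in H (median 17052). In L it lay between 10878 and 23861 RPM (median 12409). The means were 16882 ± 4140 RPM (SD, n = 12) in H and 14944 ± 4724 RPM (SD, n = 12) in L, and the difference was not tested.

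The ciliary transition zone, the gate at the base of the cilium, had reads for 15 of 24 listed genes. AHI1 (139 RPM), RPGRIP1 (128 RPM) and RPGRIP1L (101 RPM) were among them, and the filter kept none of these 3. RPGRIP1 was read in 6 H libraries and 1 L library, with means of 254 RPM in H and 1.69 RPM in L. With the filter set at reads in at least 6 libraries, 25 of 2164 host genes (1.16%) were called and RPGRIP1 was 1 of them. It passes that filter through the H libraries alone, so that nothing is read from this call.

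Intraflagellar transport and the BBSome, which carry cargo along the axoneme, had reads for 27 of 46 genes. Their leading genes were IFT88 (1661 RPM), BBS2 (569 RPM), WDR35 (451 RPM) and the dynein motor gene DYNC2H1 (375 RPM). The 9 genes kept had a median log2 fold change of 0.29, with −0.56 for IFT88 (SE 0.55, P = 0.309) and 1.18 for WDR35 (SE 1.14, P = 0.306). Among 17 ciliary kinases and kinase-like proteins 11 had reads. NEK1 (1868 RPM) and ULK4 (1718 RPM), both chosen by their junction reads, were followed by NEK4 (436 RPM) and TTBK2 (225 RPM). Axoneme and sperm flagellum had reads for 41 of 77 genes, led by IQUB (372 RPM), SPEF2 (237 RPM), TTLL5 (235 RPM) and the axonemal dynein DNAH14 (227 RPM). The 5 genes of this last group that were kept had a median log2 fold change of −0.19, small beside the SE of IQUB (1.33), SPEF2 (1.44) and TTLL5 (1.34).

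Host genes that mark possible source cells were listed apart, to set their circRNA levels beside those of CSPP1, NEK1 and ULK4. A 0 here is of back-splice junction reads only, and the linear RNA of these genes was not examined. Nothing is therefore read from a 0 about the presence of a source cell. Male germ cell and sperm genes had junction reads for 16 of 31, led by ZPBP (576 RPM), with PRM1, PRM2, TNP1 and TNP2 at 0. Their sum was 0 to 3828 RPM per library in H (median 1687) and 0 to 3809 RPM in L (median 1499). Epithelial genes had reads for 10 of 20, led by EPCAM (825 RPM), with KRT7, KRT8, KRT18 and KRT19 at 0, and sums of 0 to 5274 RPM in H (median 2105) and 488 to 2793 RPM in L (median 1885). Blood leukocyte genes had reads for 4 of 20, led by LCP1 (32.8 RPM), with PTPRC, CD3E and CD14 at 0, and sums of 0 to 252 RPM in H (median 0) and 0 to 400 RPM in L (median 121). LCP1 was read in 4 libraries, ITGAL in 3, and DOCK8 and IKZF1 in 1 each, and the difference between H and L was not tested. Over the whole table L libraries also had more circRNAs detected (median 2359) than H libraries (median 1908.5). The sum of either of the first 2 groups was below that of CSPP1 alone on average. As CSPP1 was chosen by its junction reads, nothing is read from this comparison. The part of all 3 groups in the levels of the named circRNAs was not tested.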

How the data were processed

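The deposited values are raw counts, made by the authors from reads across back-splice junctions on Sscrofa11.1 and limited to circRNAs that find_circ and CIRI2 shared, with 2 or more reads. The small RNA libraries were not used here. RPM was computed from the deposited counts. Host genes, exons and sequences came from RefSeq, NCBI annotation release 106, and flanks were matched with BLAST+ 2.17.0. L was compared with H by the quasi-likelihood test of edgeR 4.0.16 (R 4.3.3, TMM, filterByExpr, no covariate), for circRNAs and for host gene sums, with Benjamini-Hochberg adjustment over all kept. Single values used two-sided permutation tests (100000 resamples; Python 3.11.15, NumPy 2.4.6, SciPy 1.17.1, pandas 2.3.3). The 95% intervals use the SE and the normal distribution. Alternatives were no filter, reads in at least 6 libraries, library totals, TMMwsp, DESeq2 1.42.0, mean RPM, a replicate block and leaving out each library. The fits were tested on simulated data. Named were the 4 circRNAs, those sharing a start or end, the 3 most alike each, and in each listed group any gene called and the 4 highest by mean summed RPM, without those not used here; CEP350 and AKAP9 by DESeq2, RPGRIP1 and TTC21B were chosen after their values were seen. The members and lists were chosen with earlier results of these data known.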

Additional observations from a re-analysis of the deposited data

How the results depend on the processing

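For the 4 named circRNAs, the 3 gene sums and the ULK4 share, no alternative gave a P under 0.05, and the signs of values near 0 turned easily; the cause was not tested. The NEK1 sum stayed above 0 (0.16 to 0.43 leaving out single libraries) and the ULK4 sum below 0 (−0.37 to −0.07) under each alternative run. Without a filter the log2 fold change was 0.13 for the CSPP1 circRNA, 0.065 for the longer ULK4 circRNA and 0.079 for the CSPP1 sum; with reads in at least 6 libraries, 0.030, 0.014 and 0.045. The NEK1 circRNA had −0.027 with library totals, −0.090 with DESeq2, −0.025 with DESeq2 poscounts size factors (chosen after seeing the data) and −0.026 by mean RPM. The ULK4 share differed by 5.04 points with RPM summed over each group.

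Without a filter, 10517 of 17379 circRNAs, 1873 of 5182 host genes and 30 of 135 listed genes were called. Earlier work on these data had found that the unfiltered test calls most circRNAs when reads are permuted. Nothing is therefore read from these unfiltered calls. With reads in at least 6 libraries, the calls were 47 of 2793, 25 of 2164 and 1 of 67. DESeq2 called 11 circRNAs (5 higher, 6 lower in L), 10 host genes (2 higher, 8 lower) and 2 of 33 listed genes. With poscounts size factors DESeq2 called 8 circRNAs (7 higher, 1 lower in L), 8 host genes (3 higher, 5 lower) and 2 listed genes. DESeq2 moved the median log2 fold change of all circRNAs to −0.04, while with poscounts size factors it was 0.11.

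Leaving out single libraries gave 3 to 7 circRNAs (5 without H5, H6, H9, L4, L5, L9 or L10, 7 without H10), 1 to 6 host genes (1 without L1, 5 without H3 or L9, 6 without H4 or H10) and 0 to 0 listed genes. The CSPP1 circRNA ranged from −0.26 to 0.086 (0.01 without H5 or L2, 0.086 without H11) and its gene sum from −0.15 to 0.071 (0.02 without H5 or L2, 0.00 without H8, 0.071 without H11, 0.01 without L7). The NEK1 circRNA ranged from −0.13 to 0.43 (−0.06 without H1, H4 or H6, −0.05 without H5, −0.04 without H12, −0.08 without L2, −0.13 without L9, −0.00 without L10). The longer ULK4 circRNA ranged from −0.39 to 0.10 (0.10 without H7, 0.06 without H12 or L2, 0.03 without L4, 0.04 without L10), the shorter from −0.71 to −0.00, and the share from −8.53 to 1.47 points (1.47 without H1 or H4, 1.03 without L2, L4 or L10).

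With the replicate number as a block, 22 of 956 circRNAs, 16 of 1107 host genes and 1 of 33 listed genes (TTC21B) were called. Under this block the NEK1 circRNA had 1.07, the shorter ULK4 circRNA 0.28, and the ULK4 share differed by 1.03 points over 11 pairs. The numbers do not pair the libraries: same-numbered pairs correlated between −0.0427 and 0.229, with 1 of 12 above 0.1.

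The precision differed between single junctions: the SE of the log2 fold change was 0.30 for the CSPP1 circRNA, read in 24 libraries, and 0.92 to 1.06 for the other 3 named circRNAs, read in 19 to 22. Counts cannot be traced to molecules, and junction reads do not show the inner exons.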
